A study of Mus musculus with 2 samples.

Results

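The genes described are 10 surface markers with which haematopoietic stem cells (HSCs) and multipotent progenitors of the mouse are sorted and told apart: Kit, Ly6a, Procr, Slamf1, Esam, Vldlr, Cd48, Cd34, Flt3 and Cd27. They were taken by name from the 54531 genes of an expression table, whatever their values, and all 10 were found there by symbol. Their levels were read in HSCs sorted from mouse bone marrow, in 1 RNA-seq library per genotype. The Cdh5-Cre;Angptl2fl/fl library came from mice with floxed alleles of Angptl2, which encodes a secreted angiopoietin-like protein, and with a Cre recombinase that the promoter of the endothelial cadherin gene Cdh5 drives; the labels call these mice deficient for Angptl2 in endothelial cells. The Angptl2fl/fl library is labelled as the control and by its genotype label carried the floxed alleles without Cre. Its description and column heading, however, name Cdh5 and Cre and no floxed allele, so the labels do not settle whether the control mice carried Cre. The sources used here do not give the age, sex or strain of the mice, the sort gate, or how many mice stand behind a library. The comparison asks how the mRNA of HSCs differs between these 2 genotypes. In which cells Angptl2 was lost, and whether the sorted HSCs themselves carried the deletion, was not tested.

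As background, HSCs lie within the lineage-negative cells that carry KIT, the receptor for stem cell factor, and SCA-1, the product of Ly6a. Within that fraction, cells with SLAMF1 (CD150) and without CD48 are enriched for long-term stem cells, and PROCR and ESAM are used to enrich them further. CD34, FLT3, CD48 and CD27 are higher on cells that have begun to leave the stem cell state, and FLT3 marks the lymphoid-primed multipotent progenitors. A sort reads these proteins on the cell surface, whereas the values below are mRNA levels. Levels are FPKM, fragments per kilobase of gene model per 1000000 fragments, so they may be compared between genes. With 1 library per genotype there was no test across samples and no p-value, and "higher" and "lower" describe these 2 libraries. In bulk RNA, fewer cells of a type cannot be told apart from less RNA per cell.

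FPKM multiplied by exon length and by a scaling depth of 16843100 fragments in the Cdh5-Cre;Angptl2fl/fl library and 17378600 in the Angptl2fl/fl library gave fragment numbers. They lay within 0.02 of whole numbers for 96.1% and 96.5% of the 18202 and 21874 genes that had an exon length and a level above 0. The libraries also differed broadly. In all, 18217 genes were above 0 in the Cdh5-Cre;Angptl2fl/fl library and 21891 in the Angptl2fl/fl library. Mitochondrially encoded genes held 13.7% and 8.91% of the FPKM total. Angptl2 was at 0.18 FPKM (19 fragments) in the Cdh5-Cre;Angptl2fl/fl library and 0.27 FPKM (29 fragments) in the Angptl2fl/fl library, too low in these HSCs to check the genotypes, and Cdh5 was listed at 0 in the deletion library against 0.027 FPKM in the control library. The cells' label was checked against their markers. All 10 surface markers were above 0 in both libraries, but Slamf1, a defining HSC marker, stayed under 1 FPKM in each. Of 16 antigens used to deplete lineage-positive cells, 11 had a mean under 1 FPKM, and the T cell genes Cd3d, Cd3e, Cd3g, Cd8a and Cd8b1 were listed at 0 in the deletion library. Genes used as markers of other blood lineages were nevertheless present. The 10 neutrophil markers, from Ltf to S100a9, were all above 1 FPKM and summed to 1453 FPKM in the Cdh5-Cre;Angptl2fl/fl library and 2556 FPKM in the Angptl2fl/fl library, and the 10 erythroid markers summed to 2117 against 1863 FPKM. That sum was carried by Car1, at 1629 against 1315 FPKM, while 7 of the 10 were below 0 and Alas2, the erythroid enzyme of haem synthesis, was lowest at 1.51 against 4.53 FPKM. What share of these came from HSCs was not tested.

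Of the 10 surface markers, 8 were lower in the Cdh5-Cre;Angptl2fl/fl library and 2, Cd48 and Slamf1, were higher. The background share of genes below 0 was 51.6% of the 12325 genes that averaged at least 1 FPKM and 52.1% of 10232 protein-coding genes. Each difference is given as a log2 ratio, log2((FPKM + 1)/(FPKM + 1)), Cdh5-Cre;Angptl2fl/fl over Angptl2fl/fl, which understates differences of low genes. The median over all 10 was -0.23, against -0.011 over all genes tested. Rescaled to a common total, it was -0.39 against -0.15, with 69.2% of all genes below 0. None of the 10 was 2-fold apart on this scale, where 5.86% of all genes (2.47% higher and 3.38% lower) and 1.24% of protein-coding genes were. At 1.5-fold 2 of the 10 were past the limit, Cd48 upwards and Vldlr downwards, where 11.8% of all genes (5.74% higher and 6.08% lower) and 5.3% of protein-coding genes were. Slamf1, with a mean under 1 FPKM, is the single marker outside that minimum, and Vldlr reached it only through its level in the control library. The 4 other scalings tried left the sign of each marker as it was.

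**Figure D1:**
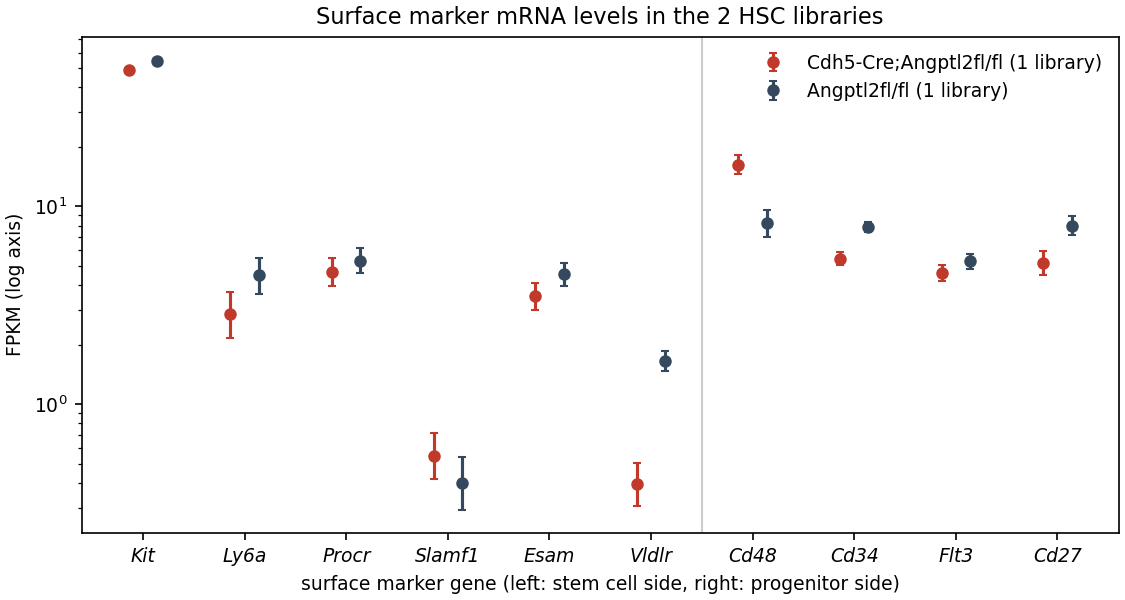
Levels of the 10 surface marker genes in FPKM (log axis), with the Cdh5-Cre;Angptl2fl/fl library in red and the Angptl2fl/fl library in dark blue; bars are exact 95% Poisson intervals from the fragment numbers and cover counting error only. Kit is highest in both libraries at 48.8 and 54.3 FPKM, Cd48 is higher in red at 16.3 against 8.23 FPKM, and Vldlr is lower in red at 0.40 against 1.66 FPKM.

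The order of the levels was led by Kit in both libraries, and Cd48 came second. In the Cdh5-Cre;Angptl2fl/fl library Cd34, Cd27, Procr and Flt3 followed between 5.43 and 4.61 FPKM, and no neighbours among these 4 were apart by their counting intervals. Esam at 3.52 and Ly6a at 2.86 FPKM came next and were not separated from each other either, and Slamf1 and Vldlr closed the order under 1 FPKM. In the Angptl2fl/fl library Cd48, Cd27 and Cd34 lay together between 8.23 and 7.87 FPKM and were not separated. Procr, Flt3, Esam and Ly6a then lay between 5.33 and 4.49 FPKM with no separated neighbours, followed by Vldlr at 1.66 and Slamf1 at 0.40 FPKM. So Cd48 stood apart from Cd34 and Cd27 in the deletion library, and stood level with them in the control library. Kit made up 52.9% of the summed FPKM of the 10 genes in the Cdh5-Cre;Angptl2fl/fl library and 54.2% in the Angptl2fl/fl library, and Cd48 made up 17.6% and 8.22%. The sums were 92.3 and 100.1 FPKM.

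Kit (chromosome 5, 75574916 to 75656722, plus strand, GRCm38) encodes the receptor tyrosine kinase for stem cell factor. It stood at 48.8 FPKM (7320 fragments) in the Cdh5-Cre;Angptl2fl/fl library and 54.3 FPKM (8406 fragments) in the Angptl2fl/fl library, above 92.6% and 94.4% of the protein-coding genes detected there. The log2 ratio was -0.15, a 10.2% lower level, and without a pseudocount the ratio was -0.15 with an exact 95% Clopper-Pearson counting interval of -0.20 to -0.11. Such intervals treat fragments as independent molecules and cover counting error only, not the spread between mice. They excluded equality for 8 of the 10 markers, 7 of them lower and 1 higher, but also for 58.9% of 9664 protein-coding genes with fragment numbers, 31.5% lower and 27.4% higher. An interval that excludes equality is therefore common between these libraries. Protein-coding genes with a mean between 20 and 100 FPKM had log2 ratios between -0.30 and 0.41 from their 5th to their 95th percentile, and Kit lay inside that range.

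Ly6a (chromosome 15, 74994877 to 74998031, minus strand) encodes SCA-1, a small protein held on the membrane by a lipid anchor. Its mRNA was at 2.86 FPKM (58 fragments) in the Cdh5-Cre;Angptl2fl/fl library and 4.49 FPKM (94 fragments) in the Angptl2fl/fl library. The log2 ratio was -0.51, and -0.65 without a pseudocount (counting interval -1.15 to -0.16). It lay inside the range of protein-coding genes with a mean of 1 to 5 FPKM, -0.63 to 0.54. Of the 50-base stretches of its transcripts, 19.0% also occur in transcripts of other genes, among them Ly6c1 and Ly6i, so fragments may have been exchanged within the family. The other 9 markers shared at most 3.31% of such stretches.

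Procr (chromosome 2, 155751117 to 155755471, plus strand) encodes the endothelial protein C receptor, which binds activated protein C and is used to enrich HSCs. It was at 4.68 FPKM (160 fragments) in the Cdh5-Cre;Angptl2fl/fl library and 5.33 FPKM (188 fragments) in the Angptl2fl/fl library. The log2 ratio was -0.16, and the counting interval without a pseudocount, -0.50 to 0.12, included equality: at this depth no difference could be detected. Esam (chromosome 9, 37528078 to 37538319, plus strand), an immunoglobulin-like adhesion molecule of endothelial cells and HSCs, was at 3.52 FPKM (170 fragments) against 4.56 FPKM (227 fragments). Its log2 ratio was -0.30, and -0.37 without a pseudocount (counting interval -0.67 to -0.079), inside the range of genes of like level. Both genes are also expressed by endothelial cells. Of 11 endothelial markers, 5 had a mean under 1 FPKM, Cdh5, Kdr, Flt1, Emcn and Stab2, and the 11 summed to 32.1 FPKM in the Cdh5-Cre;Angptl2fl/fl library and 32.9 FPKM in the Angptl2fl/fl library.

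Vldlr (chromosome 19, 27216484 to 27254231, plus strand) encodes the very low density lipoprotein receptor, which takes up lipoproteins and binds reelin, and its mRNA is used as an HSC marker. It had the lowest ratio of the 10, at 0.40 FPKM (67 fragments) in the Cdh5-Cre;Angptl2fl/fl library and 1.66 FPKM (290 fragments) in the Angptl2fl/fl library. The plain level was 4.19-fold lower, a log2 ratio of -2.07 with a counting interval of -2.47 to -1.68. Fewer genes were above 0 in the deletion library, and the part of this in the Vldlr value was not tested. On the scale with a pseudocount of 1 the ratio was -0.93, short of 2-fold. It passed 2-fold with a pseudocount of 0.1, at -1.83, and after rescaling the libraries to a common total, at -1.47. That rescaling raised FPKM totals of 419943 (Cdh5-Cre;Angptl2fl/fl) and 379052 (Angptl2fl/fl) to 1000000 and kept the pseudocount at 1. The pseudocount therefore weighed less there, so the value of -1.47 does not show the effect of scaling alone. The sequence around its first start site is shown because this marker differed by the largest plain ratio of the 10. It is taken from RefSeq on GRCm38.p6, chr19:27216234-27216533, plus strand, and runs from 250 bases before the start through the first 50 bases of the transcript. Capitals mark matches to any of 6 motifs searched on both strands.
Vldlr: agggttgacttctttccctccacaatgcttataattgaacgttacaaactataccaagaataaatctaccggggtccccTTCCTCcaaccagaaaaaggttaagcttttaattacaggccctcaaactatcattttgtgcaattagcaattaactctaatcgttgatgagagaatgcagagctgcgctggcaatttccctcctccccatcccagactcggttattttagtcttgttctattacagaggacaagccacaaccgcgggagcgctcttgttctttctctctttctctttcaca

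The motifs were AGATAA (bound by GATA factors), TGTGGT (RUNX factors), GAGGAA (ETS factors), AGGTCA (nuclear receptors), TATAAA (the TATA box) and, for PPAR with RXR, a direct repeat of AGGTCA with any base between the copies. The single match in the Vldlr window was GAGGAA on the minus strand at position -171 from the start, a motif held by 28.1% of 32544 mouse promoter windows of this length. The other 5 motifs had no match there. A match is a run of letters and says nothing of a bound factor. Promoter windows were found for 8 of the 10 markers, not for Ly6a and Esam. The other matches were GAGGAA in Kit, AGGTCA in Procr and TGTGGT in Cd48, present in 28.1%, 16.2% and 16.7% of all windows, and none of the 8 windows held the direct repeat, which occurs in 0.0399%.

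Slamf1 and Cd48 belong to the SLAM family of immunoglobulin-like receptors and lie next to each other on chromosome 1, with 61868 bases between the end of Cd48 (171682009 to 171705258, plus strand) and the start of Slamf1 (171767127 to 171801184, plus strand). SLAMF1 binds itself on neighbouring cells, and CD48 is a lipid-anchored ligand of CD244 that most leukocytes carry. Cd48 was at 16.3 FPKM (326 fragments) in the Cdh5-Cre;Angptl2fl/fl library and 8.23 FPKM (170 fragments) in the Angptl2fl/fl library. The plain level was 1.98-fold higher, a log2 ratio of 0.98 with a counting interval of 0.71 to 1.26, and with the pseudocount the ratio was 0.91. Of the 4289 protein-coding genes with a mean of 5 to 20 FPKM, 18 had a higher ratio than Cd48, and the 5th to 95th percentile ran from -0.41 to 0.41. Slamf1 was at 0.55 FPKM (57 fragments) against 0.40 FPKM (43 fragments). The counting interval of its plain log2 ratio of 0.45 ran from -0.14 to 1.06 and included equality, so that no difference could be detected from so few fragments. The ratio of Slamf1 to Cd48, which does not depend on how the libraries are scaled, was 3.38% in the Cdh5-Cre;Angptl2fl/fl library and 4.89% in the Angptl2fl/fl library, a log2 difference of -0.53 (counting interval -1.16 to 0.098).

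The start regions of both SLAM genes are shown because these neighbours are the 2 markers that were higher, and because the absence of CD48 beside SLAMF1 defines the stem cell gate. Both are RefSeq windows on GRCm38.p6 cut and marked as for Vldlr, chr1:171681742-171682041 for Cd48 and chr1:171766882-171767181 for Slamf1, plus strand. The capitals in Cd48 are the TGTGGT match, at position -76 from the start, and Slamf1 has no match to the 6 motifs. GC content was 47.3% in Cd48 and 49.0% in Slamf1, against a median of 53.0% over all windows.
Cd48: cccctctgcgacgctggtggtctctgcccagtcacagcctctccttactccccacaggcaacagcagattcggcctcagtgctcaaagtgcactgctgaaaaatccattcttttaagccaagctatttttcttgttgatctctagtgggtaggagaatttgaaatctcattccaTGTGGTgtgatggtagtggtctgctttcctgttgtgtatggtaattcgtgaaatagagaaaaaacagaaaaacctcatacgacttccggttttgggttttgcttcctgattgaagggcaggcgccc
Slamf1: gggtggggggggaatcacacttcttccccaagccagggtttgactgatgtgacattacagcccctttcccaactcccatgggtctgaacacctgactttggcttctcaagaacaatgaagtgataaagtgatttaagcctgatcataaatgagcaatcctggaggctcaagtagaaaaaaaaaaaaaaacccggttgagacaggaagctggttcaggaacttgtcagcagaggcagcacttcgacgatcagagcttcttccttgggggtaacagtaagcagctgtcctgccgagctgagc

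Cells other than HSCs carry Cd48, and their markers moved between the libraries in both directions. The counts below stand beside 51.6% of all genes tested that were below 0. Monocyte and macrophage markers summed to 110 FPKM in the Cdh5-Cre;Angptl2fl/fl library and 283 FPKM in the Angptl2fl/fl library, with 7 of 8 measured genes below 0. Most of the difference in this sum lay in Lyz2, at 86.1 against 242 FPKM. Vcam1 went the other way, at 5.78 against 3.69 FPKM. Neutrophil markers were below 0 in 10 of 10, and eosinophil, basophil and mast cell markers summed to 17.8 against 80.9 FPKM with 4 of 6 below 0. Most of the difference in that last sum lay in Prg2, an eosinophil granule protein, at 2.13 against 49.9 FPKM, while the mast cell protease gene Cpa3 was at 3.68 against 1.78 FPKM. Megakaryocyte markers summed to 176 against 82.3 FPKM, with 6 of 8 above 0. Most of that difference lay in Pf4, at 94.7 against 29.9 FPKM. B and plasma cell markers summed to 37.5 against 43.3 FPKM with 4 of 7 above 0, and in the T and NK cell list Nkg7, at 78.0 against 29.1 FPKM, was alone in reaching a mean of 1 FPKM. Among 16 measured surface markers of committed progenitors 12 were below 0, with Csf1r and Cd33 lowest, Csf1r being measured only through its control level. Fcgr3, a low-affinity IgG receptor of myeloid progenitors, was highest at 17.9 against 6.66 FPKM, followed by Ly6c2, a monocyte antigen, at 60.8 against 30.4 FPKM. The part of these cells in the Cd48 value was not tested.

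Cd34 (chromosome 1, 194938819 to 194961279, plus strand) encodes a sialomucin that adult long-term HSCs of the mouse mostly lack and their first progeny carry. It was at 5.43 FPKM (667 fragments) in the Cdh5-Cre;Angptl2fl/fl library and 7.87 FPKM (997 fragments) in the Angptl2fl/fl library. The log2 ratio was -0.46, and -0.53 without a pseudocount (counting interval -0.68 to -0.39), below the 5th percentile of -0.41 among genes of 5 to 20 FPKM. Its exons share 148 of 7290 bases with an antisense gene, Gm16897, and the sources used here do not say whether fragments were counted by strand. Cd27 (chromosome 6, 125232622 to 125237010, minus strand), a receptor of the tumour necrosis factor family whose ligand is CD70, was at 5.18 FPKM (203 fragments) against 8.01 FPKM (324 fragments). Its log2 ratio was -0.54, and -0.63 without a pseudocount (counting interval -0.89 to -0.37), with 87 of 4289 genes of like level lower. A microRNA gene, Mir8113, lies on 129 of the 2328 exon bases of Cd27.

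Flt3 (chromosome 5, 147330741 to 147400489, minus strand) encodes the receptor for FLT3 ligand and is related to KIT. It stood at 4.61 FPKM (480 fragments) in the Cdh5-Cre;Angptl2fl/fl library and 5.27 FPKM (566 fragments) in the Angptl2fl/fl library. The log2 ratio was -0.16, and -0.19 without a pseudocount (counting interval -0.37 to -0.015), inside the range of genes of like level. The progenitor-associated markers thus did not share a direction, with Cd48 higher and Cd34, Cd27 and Flt3 lower.

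**Figure D2:**
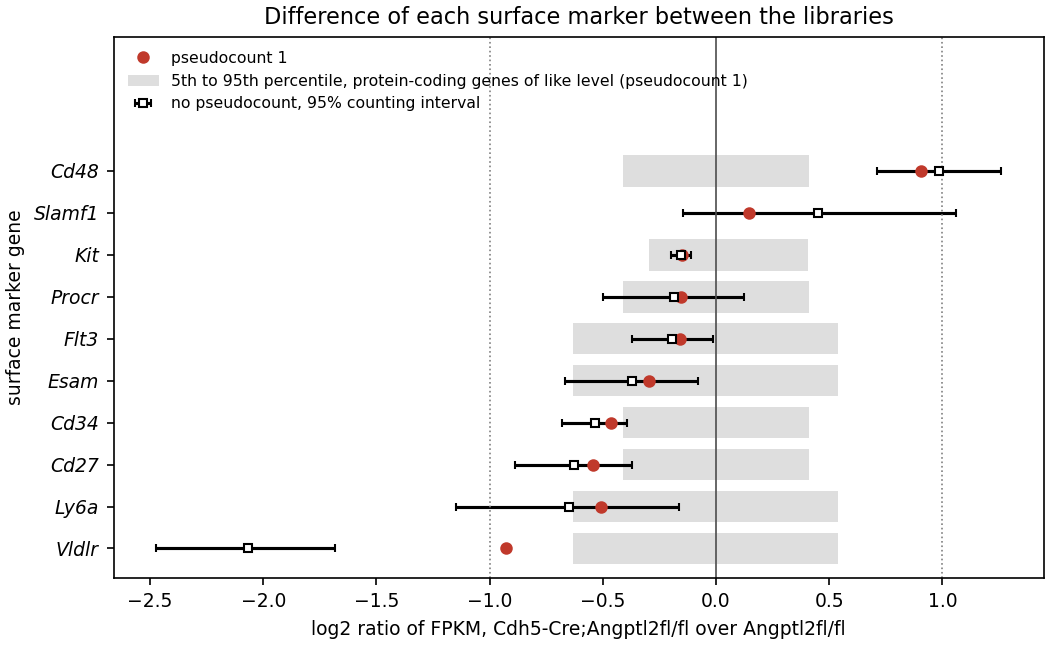
Log2 ratio of each surface marker, Cdh5-Cre;Angptl2fl/fl over Angptl2fl/fl, with a pseudocount of 1 (red) and without (open squares, with 95% counting intervals); grey bars span the 5th to 95th percentile of protein-coding genes in the same class of mean FPKM, and dotted lines mark 2-fold. Cd48 lies above its grey bar, Cd27 and Cd34 below theirs, and Kit, Ly6a, Procr, Esam and Flt3 inside; Vldlr lies below a bar whose class it entered only through its control level, and Slamf1 has no bar because its mean was under 1 FPKM.

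Set against protein-coding genes of like level, Cd48, Cd27 and Cd34 lay outside the 5th to 95th percentile, where 10% of genes lie by construction, and Kit, Ly6a, Procr, Esam and Flt3 lay inside. Cd27 and Cd34, with means of 6.59 and 6.65 FPKM, were near the 5 FPKM edge of their class. Their ratios would lie inside the wider range of the 1 to 5 FPKM class, -0.63 to 0.54. Vldlr is not ranked among genes of like level, since its mean passed 1 FPKM only through the control library. By usual use in sorting, the markers divide into Kit, Ly6a, Procr, Slamf1, Esam and Vldlr on the stem cell side and Cd48, Cd34, Flt3 and Cd27 on the progenitor side. The first group summed to 60.8 FPKM in the Cdh5-Cre;Angptl2fl/fl library and 70.7 FPKM in the Angptl2fl/fl library, and the second to 31.5 and 29.4 FPKM. Without Cd48 the second group was lower in each gene.

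**Figure D3:**
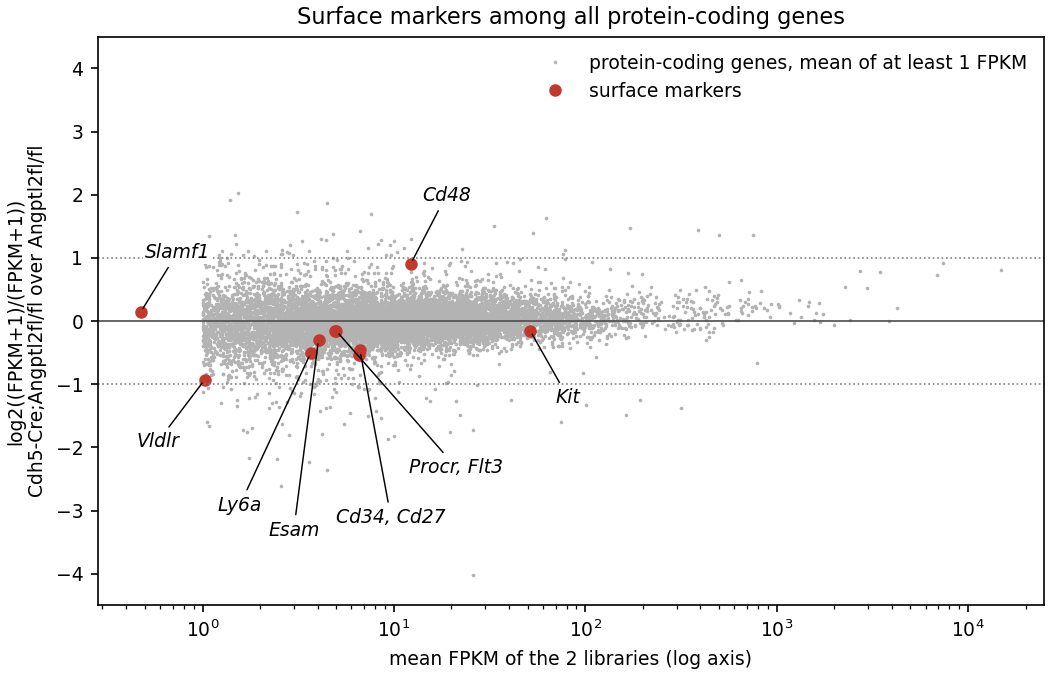
Log2((FPKM + 1)/(FPKM + 1)), Cdh5-Cre;Angptl2fl/fl over Angptl2fl/fl, against the mean FPKM of both libraries (log axis) for protein-coding genes averaging at least 1 FPKM (grey) and the 10 surface markers (red); dotted lines mark 2-fold. The markers lie between -0.93 (Vldlr) and 0.91 (Cd48), inside the 2-fold lines.

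Ratios to Kit in the same library carry no scaling between libraries. Cd48 was at 33.4% of the Kit level in the Cdh5-Cre;Angptl2fl/fl library and 15.2% in the Angptl2fl/fl library, a log2 difference of 1.14 (counting interval 0.87 to 1.41). Vldlr was at 0.81% against 3.05%, a difference of -1.91 (-2.30 to -1.53). Cd27 was at 10.6% against 14.8% (difference -0.47, interval -0.73 to -0.22), and Cd34 at 11.1% against 14.5% (difference -0.38, interval -0.53 to -0.23). Procr at 9.59% against 9.81%, Flt3 at 9.46% against 9.72% and Esam at 7.22% against 8.39% had intervals that included 0, from -0.34 to 0.27, from -0.22 to 0.14 and from -0.51 to 0.073. Ly6a at 5.86% against 8.27% and Slamf1 at 1.13% against 0.74% had intervals of -0.97 to -0.023 and 0.033 to 1.18, close to 0 at one end. So 6 of the 9 intervals left out 0, between libraries in which counting intervals of the levels themselves excluded equality for 58.9% of protein-coding genes.

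Counts of genes below 0 in the lists that follow stand beside 51.6% of all genes tested, or 69.2% at a common total. Other genes of the same families and pathways were read from these lists, counting genes that averaged at least 1 FPKM. Of 12 SLAM family and adaptor genes 3 reached it, Cd48 itself, Ly9 at 2.28 FPKM in the Cdh5-Cre;Angptl2fl/fl library against 2.96 FPKM in the Angptl2fl/fl library, and Cd84 at 3.87 against 4.76 FPKM. Cd244a, the receptor of CD48, was under that level at 0.80 against 0.57 FPKM. Ly9 and Cd84 lie in the same gene cluster as Cd48 and Slamf1, so of the 3 SLAM genes measured there Cd48 was higher and the other two lower. The class III receptor tyrosine kinase list had 4 of 5 genes below 0 and 1 at least 2-fold lower, Csf1r, the macrophage growth factor receptor, at 0.75 against 4.44 FPKM. Csf1r reached the minimum mean of 1 FPKM only through its control level. Pdgfrb was the gene above 0, at 3.26 against 2.43 FPKM. Flt3l, the FLT3 ligand, was at 3.49 against 4.78 FPKM, and Kitl, which encodes stem cell factor, was listed at 0 in the deletion library and at 0.12 FPKM in the control library.

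Signalling genes downstream of KIT and FLT3 were mostly lower by small ratios. Of 25 measured genes 21 were below 0 and 4 above, where 51.6% of all genes were below 0. None passed 2-fold, and the median log2 ratio was -0.16, against -0.011 over all genes. The ends were Dok1, an adaptor that restrains tyrosine kinase signalling, at 25.6 FPKM in the Cdh5-Cre;Angptl2fl/fl library against 35.5 FPKM in the Angptl2fl/fl library, and Stat3 at 7.96 against 11.2 FPKM on the low side and Socs1, an inhibitor of JAK kinases, at 2.0 against 1.60 FPKM on the high side. Rescaled to a common total, the list median was -0.31, while that of all genes was -0.15.

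Among 8 measured LY6 family genes, 3 were above 0 and 5 below, with a median of -0.15. Ly6c2 was highest, and Ly6g, the neutrophil antigen, was the member past 2-fold at 3.91 FPKM in the Cdh5-Cre;Angptl2fl/fl library against 9.04 FPKM in the Angptl2fl/fl library. Plaur, the urokinase receptor, was at 12.6 against 25.7 FPKM, and Cd59a, a complement inhibitor, at 8.95 against 7.63 FPKM. The protein C pathway had 3 of 6 genes above 0. F2r, which encodes the thrombin receptor PAR1 that activated protein C also cleaves, was lowest at 20.8 against 26.7 FPKM, followed by Tfpi, an inhibitor of coagulation, at 4.05 against 4.79 FPKM. F2rl2 at 2.21 against 0.99 FPKM and F2rl3 at 4.46 against 3.46 FPKM, genes of further protease-activated receptors, were highest. F2rl2 reached the minimum mean of 1 FPKM only through its level in the deletion library.

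Esam, Cd34, Cd27 and Vldlr each had the lowest ratio of the measured genes in their own family or pathway list, Vldlr being measured there only through its control level. In the adhesion list 4 of 11 genes were measured. Its genes under 1 FPKM include Cxadr and Jam3, whose log2 ratios of -0.38 and -0.31 were lower than the -0.30 of Esam. The place of Esam thus depends on the minimum level. Tjp1 was at 5.81 FPKM in the Cdh5-Cre;Angptl2fl/fl library against 5.86 FPKM in the Angptl2fl/fl library, and F11r at 1.81 against 1.58 FPKM. The sialomucin and selectin list had 5 of 7 below 0, with Podxl (podocalyxin) at 1.72 against 1.59 FPKM and Cd164 at 42.0 against 38.3 FPKM. In the CD27 pathway 4 of 8 were below 0. Map3k14, a kinase of noncanonical NF-kB signalling, was at 1.53 against 2.32 FPKM, Traf2 at 10.1 against 8.39 FPKM and Siva1, which binds the CD27 tail, at 22.9 against 20.3 FPKM, while Cd70 was listed at 0 in both. The LDL receptor family had 8 of 11 below 0, with Lrp1 at 1.43 against 2.14 FPKM, Lrp5 at 7.55 against 6.09 FPKM and Lrp8 at 3.00 against 2.68 FPKM. None of the genes in these 4 lists was 2-fold apart. Their medians of 0.057, -0.051, 0.0028 and -0.092 turned sign with the scaling for the first 3, to -0.055 and -0.14 for the adhesion list and the CD27 pathway at a common total, and to 0.023 for the sialomucin and selectin list without mitochondrially encoded genes in the total. The protein C pathway median of 0.033 became -0.057 at a common total. The median of all genes, -0.011, moved as well, to -0.15 at a common total and to 0.058 without mitochondrially encoded genes.

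**Figure D4:**
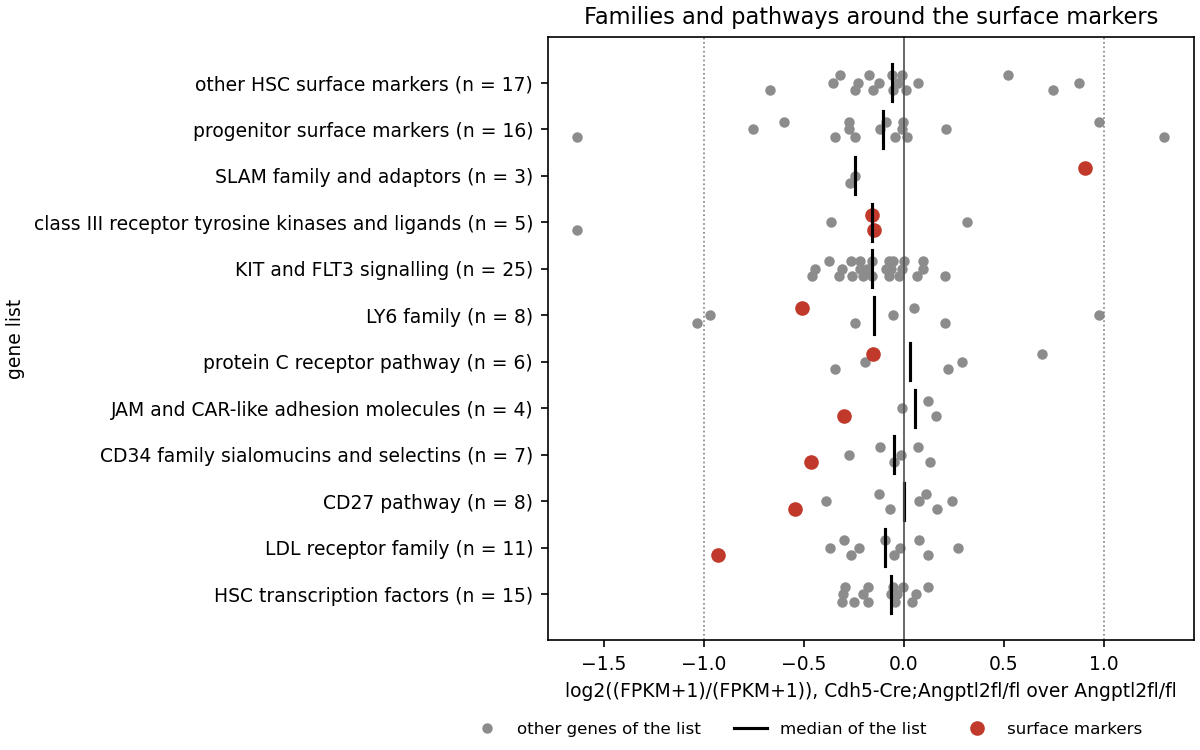
Log2((FPKM + 1)/(FPKM + 1)), Cdh5-Cre;Angptl2fl/fl over Angptl2fl/fl, of genes averaging at least 1 FPKM in 12 lists of related genes (grey points), with the surface markers in red and list medians as black bars; the vertical spread within a row has no meaning. Esam, Cd34, Cd27 and Vldlr sit at the low end of their lists and Cd48 at the high end of its own. Medians lie between -0.24 and 0.057. Those of 5 lists near 0 changed sign with the scaling (protein C pathway, adhesion, sialomucin, CD27 pathway and HSC transcription factors). The median of all genes moved with the scaling too.

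Other surface proteins used on HSCs lay on both sides of equality. Of 17 measured genes 12 were below 0 and 5 above, where 51.6% of all genes were below 0. None passed 2-fold, and the median log2 ratio was -0.061, against -0.011 over all genes. Pdzk1ip1, a small membrane protein used as an HSC reporter gene, was lowest at 6.95 FPKM in the Cdh5-Cre;Angptl2fl/fl library against 11.6 FPKM in the Angptl2fl/fl library, followed by Cd93 at 4.82 against 6.45 FPKM. Itga2b (CD41, also a megakaryocyte integrin) was highest at 30.7 against 16.3 FPKM, followed by Cd63, a tetraspanin of granules and platelets, at 23.8 against 13.8 FPKM. Of the surface markers of committed progenitors described beside Cd48, 1 was at least 2-fold higher (Fcgr3) and 1 at least 2-fold lower (Csf1r, measured only through its control level). Cd33 was at 1.68 against 3.52 FPKM. The 5 measured lineage antigens had 3 below 0, with Ly6g and Itgam (2.03 against 3.40 FPKM) lowest.

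Of 15 measured HSC transcription factors 12 were below 0, where 51.6% of all genes were, and none passed 2-fold. The median was -0.066, which turned to 0.011 without mitochondrially encoded genes in the total. The median of all genes moved from -0.011 to 0.058 with that change. Erg at 11.2 FPKM in the Cdh5-Cre;Angptl2fl/fl library against 14.1 FPKM in the Angptl2fl/fl library and Hoxb4 at 2.06 against 2.78 FPKM were lowest. Myb at 59.3 against 54.5 FPKM and Fli1 at 7.65 against 7.30 FPKM were highest.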

How the data were processed

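RNA of sorted bone marrow HSCs was sequenced as 150 bp paired-end reads, per the labels' protocols, in 1 library per genotype. The authors deposited FPKM for 54531 Ensembl genes. The submitters' processing notes name Bowtie 0.12.2 and the build mm8 without a role; how fragments were counted, and on which annotation, is not given in the sources used here. Columns were matched to samples by the description label.

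Symbols came from a table of gene names, and positions, types and exon lengths from GENCODE M21 on GRCm38, not the build in the notes. Fragments were recovered from FPKM and exon length (tolerance 0.02). Ratios used a pseudocount of 1 and counts a minimum mean of 1 FPKM. Intervals are at 95% and cover counting error only; differences of ratios used a normal approximation. No test across samples was possible from a single library of each genotype. FPKM depends on the other genes of a library, so 4 scalings were tried, with pseudocounts of 0.1 and 5, minimum levels, thresholds and gene types. A ratio without a pseudocount was added after seeing the data. The script was tested on simulated data. Computation used Python 3.11.15, numpy 2.4.6, pandas 2.3.3 and scipy 1.17.1.

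The markers and lists were chosen with earlier results of these data known. Genes named are the 10 markers, Angptl2, Cdh5, and the 2 highest and 2 lowest ratios of each list. Not every gene so chosen is reported here. Values of Cd244a, Kitl, Cd70, Ly6e, Pdgfra, Kdr, Flt1, Pan3, Pf4, Cxadr and Jam3 are given outside that rule, chosen after they were seen.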

Additional observations from a re-analysis of the deposited data

How the results depend on the processing

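The 4 other scalings, the choices that could turn a sign, turned none of the 10 markers. Over every setting, 8 of 85 recomputed values moved beyond counting error. The values at other minimum levels, counted among the 85, could not move, since a minimum selects genes and does not enter a ratio. Kit ran from -0.30 (common total) to -0.075 (without mitochondrially encoded genes), Cd34 from -0.64 (common total) to -0.30 (pseudocount of 5), and Vldlr from -2.07 (no pseudocount) to -0.30 (pseudocount of 5), past 2-fold in 3 settings. In each of these 3 settings, the common total among them, the pseudocount weighed less or was left out. Rescaling to a common total moved the median of all genes to -0.15 and that of the markers to -0.39. At a minimum mean of 5 FPKM, 4 of the 5 markers left were below 0. The numbers of genes at least 2-fold higher and lower, 305 and 417, followed the settings: 471 higher with a pseudocount of 0.1, 74 and 118 with 5, 683 lower without a minimum, 83 and 97 at a minimum of 5 FPKM, 708 and 749 at 1.5-fold, 75 and 165 at 4-fold, and 50 and 77 among protein-coding genes. Such counts depend on the limit, the pseudocount and the set of genes chosen. What causes the differences between the libraries was not tested. No paired analysis was possible because each genotype had 1 library, and none could be left out. Slamf1, Ly6a and Vldlr rest on under 100 fragments in a library, which limits what can be seen.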

Other observations

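Some of the surface markers lie beside related genes on their chromosomes. Within 200000 bases of Ly6a on chromosome 15, Ly6e, a relative expressed widely in blood cells, was at 119 FPKM in the Cdh5-Cre;Angptl2fl/fl library and 123 FPKM in the Angptl2fl/fl library, while Ly6c2 was higher and Ly6g lower, with Ly6a between them at a log2 ratio of -0.51. Pdgfra and Kdr, the receptor genes beside Kit on chromosome 5, were under 1 FPKM in both libraries. Flt1, near Flt3, was at 0.018 against 0.077 FPKM, and Pan3, which lies between them and encodes a subunit of a deadenylase, was at 9.69 against 11.5 FPKM.

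Marker lists of other cells gave medians of -1.25 for neutrophils (8 of 10 at least 2-fold lower in the Cdh5-Cre;Angptl2fl/fl library), -0.88 for monocytes and macrophages (3 of 8), -1.03 for eosinophils, basophils and mast cells (3 of 6) and -0.40 for erythroid cells (1 of 10). The megakaryocyte median was 0.68, with 3 of 8 at least 2-fold higher. Csf1r, Epx and Ppbp, counted among these, reached the minimum mean of 1 FPKM only through the library where they were higher. Of all genes tested, 3.38% were at least 2-fold lower and 2.47% at least 2-fold higher. Endothelial genes had a median of -0.066 and B and plasma cell genes one of 0.030. The latter turned to -0.11 at a common total, where the median of all genes was -0.15. Of 10 stromal genes 2 reached a mean of 1 FPKM.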
